A study of Mus musculus with 36 samples.

Results

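The gonads of XX and XY control mouse embryos at stage E12.5 of development (E for embryonic day) were compared, which sets the early ovary against the early testis. The comparison used 6 of the 36 samples of the series, chosen by their labels as control gonads of that stage, with 3 libraries from XX and 3 from XY embryos. The study removed miR-17~92, microRNA genes that share 1 transcript, and asked what this does to gonad development. All control embryos were labelled WT, and neither the labels nor the methods give a finer genotype for them. The KO libraries, which entered the filter on low counts, the scaling and the estimate of the spread but no comparison, came from embryos with del/del alleles of miR-17~92 and the transgene Tg(CAG-cre)1Nagy, whose CAG promoter is active in most tissues, on a background of C57BL/6 and 129S4/SvJae. Each library held the RNA of 2 pairs of gonads without the mesonephros, the embryonic kidney beside the gonad, so a library is a pool and not a single embryo. No litter, batch or day is given for any library, so p-values measure the spread between these pools.

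The gonad starts as a primordium that can become either organ. In XY embryos Sry switches on Sox9 in the supporting cells, which become Sertoli cells, enclose the germ cells in cords and instruct fetal Leydig cells to make androgens. In XX embryos Wnt4, Rspo1 and Foxl2 act in pre-granulosa cells, and the germ cells enter meiosis while those of the testis arrest.

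The total count per library was between 11877379 (XY replicate 3) and 23839505 (XY replicate 1). Levels are given as CPM, counts scaled to a common library size, and differences as the log2 fold change of XX minus XY ± SE, so that a positive value is higher in XX. A gene was called at an FDR under 0.05, the Benjamini-Hochberg adjusted p of edgeR's quasi-likelihood test. The labels matched the sex chromosomes. Xist, the RNA that silences an X chromosome, was at 1924, 1976 and 1640 CPM in the XX libraries and at 2.13, 2.25 and 0.434 CPM in the XY libraries. The Y-linked Eif2s3y was at 0 in all 3 XX libraries and at 62.0, 85.3 and 105 CPM in the XY libraries, and Ddx3y, Kdm5d and Uty were likewise at or near 0 in XX. On the X chromosome 172 of 540 tested genes (31.9%) were called, 106 of them higher in XX.

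Among 13799 tested autosomal genes, 3234 (23.4%) were called between XX and XY gonads. Of these, 1528 (11.1% of tested genes) were higher in XX and 1706 (12.4%) were higher in XY. The difference was under 2-fold for 1459 of the calls (45.1%) and at least 4-fold for 645, of which 278 were higher in XX and 367 in XY. At 32-fold or more there were 88 genes, 30 higher in XX and 58 in XY. The 3 XX and 3 XY libraries did not overlap for 4990 autosomal genes (36.2%), and 3 libraries against 3 cannot give an exact permutation p below 0.1, so only the test across all genes was used for calls. Each list described below was summarised by its calls and by the median log2 fold change of its tested members, beside a median of 0.004 over all tested autosomal genes. Because these are bulk samples, fewer cells of a type and less RNA per cell cannot be told apart.

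**Figure D1:**
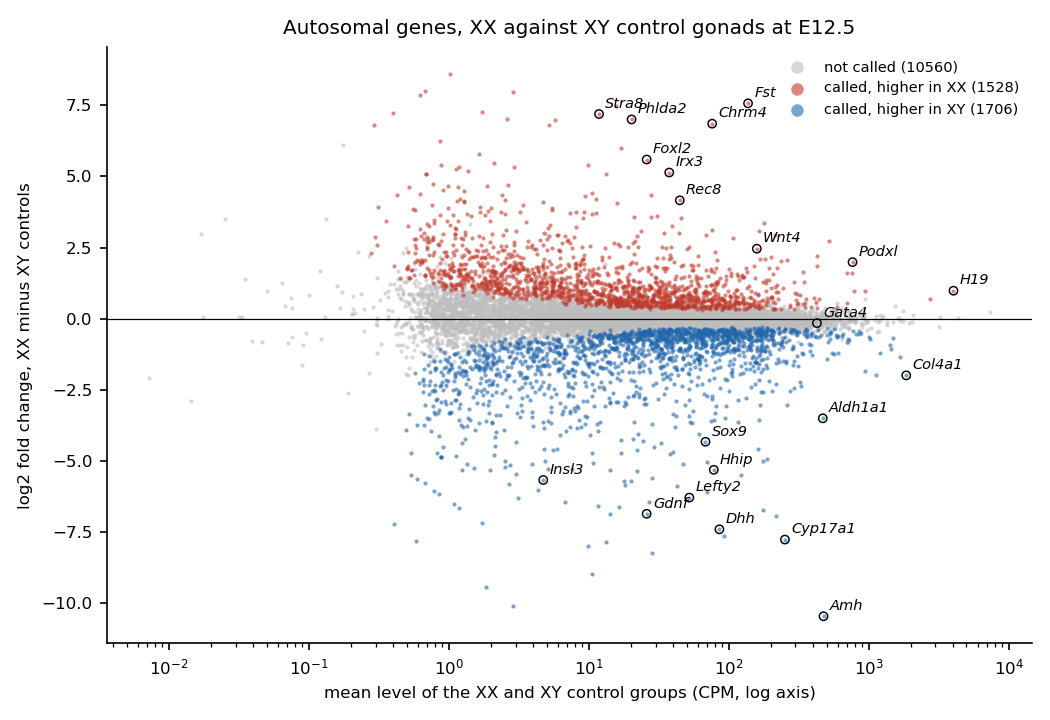
Each point is a tested autosomal gene, placed by its mean level over both groups (CPM, log axis) and its log2 fold change of XX minus XY controls at E12.5, and 5 genes without counts in both groups are not drawn. The 1528 genes called higher in XX (red) and the 1706 called higher in XY (blue) spread over all levels, from Amh at -10.46 to Fst at 7.57 among the genes marked by a circle.

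In the list of 15 Sertoli and testis-determining transcription factors, 7 were called higher in XY and 1 higher in XX. The share called was 53.3%, beside 23.4% of autosomal genes, 7 were not called, and the median log2 fold change was -0.35. Sox9, which drives Sertoli cell fate, was at 7.48, 4.84 and 7.13 CPM in the XX libraries and at 130, 143 and 117 CPM in the XY libraries, with no overlap. Its log2 fold change was -4.33 ± 0.33 (FDR = 2.38e-07). Its relatives were also higher in XY, Sox8 by a similar amount, at -4.22 ± 0.24, and Sox10 by more, at -7.86 ± 0.59. Sox10 was at most 0.258 CPM in XX and between 21.6 and 32.7 CPM in XY. Tcf21, a factor of the gonadal stroma, was at 82.4, 62.9 and 116 CPM in XX and at 226, 227 and 219 CPM in XY, at -1.37 ± 0.20, and Nr0b2 was at -1.58 ± 0.40.

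Gata4, which opens the gonadal programme, was at 437, 384 and 390 CPM in XX and at 449, 522 and 381 CPM in XY, with overlapping libraries and an FDR of 0.495. Dmrt1, later required to keep the testis a testis, also overlapped, with a log2 fold change of -0.35 ± 0.21 (FDR = 0.266). Wt1, a factor of the coelomic epithelium and supporting cells, was the member higher in XX, at 0.73 ± 0.12. Nr5a1, the steroidogenic factor, was called higher in XY at -0.48 ± 0.16 (FDR = 0.0393), but lost the call in 5 of the 6 fits that each left out 1 library, with an FDR between 0.080 and 0.152. Without XY replicate 1, 4 of the 15 factors were called higher in XY instead of 7, and Nr0b2 was among those lost (FDR = 0.0781).

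Sertoli cell products formed the list that separated the gonads most. Of 23 tested products, 22 were called higher in XY, where 12.4% of autosomal genes were, and the list's median was -4.31. None was called higher in XX by edgeR or DESeq2, and 1 was at an unadjusted p under 0.05. The exception was the adhesion molecule Nrcam, which was not called. Amh, the hormone that removes the Müllerian ducts, lies at chr10:80805243-80807648 (GRCm38, plus strand). It was at 1132, 1076 and 646 CPM in the XY libraries and at 1.08, 0.404 and 0.500 CPM in the XX libraries, a log2 fold change of -10.46 ± 0.46 (FDR = 1.33e-09). This was the largest difference toward XY among the called autosomal genes that averaged 5 CPM or more in XY and had no overlap of libraries.

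Enzymes and ligands of the Sertoli cell followed the same direction. Hsd17b3, which makes testosterone from androstenedione, had a log2 fold change of -8.23 ± 0.39, with at most 0.309 CPM in XX and at least 49.0 CPM in XY. Ptgds, the prostaglandin D2 synthase that feeds back on Sox9, was at 251, 157 and 141 CPM in XY and near 1 CPM in XX, at -7.63 ± 0.30. Dhh, the Hedgehog ligand that acts on Leydig precursors, was at 172, 195 and 144 CPM in XY and at 0.980, 0.757 and 1.31 CPM in XX, at -7.41 ± 0.28. Gdnf, a growth factor for spermatogonial stem cells that was not in the list, was at -6.86 ± 0.32, between 47.5 and 57.7 CPM in XY. In each of these 4 genes no XX library reached the lowest XY library. Clu, a secreted chaperone, varied more, at 728, 285 and 394 CPM in XY against 56.3, 79.6 and 104 CPM in XX.

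**Figure D2:**
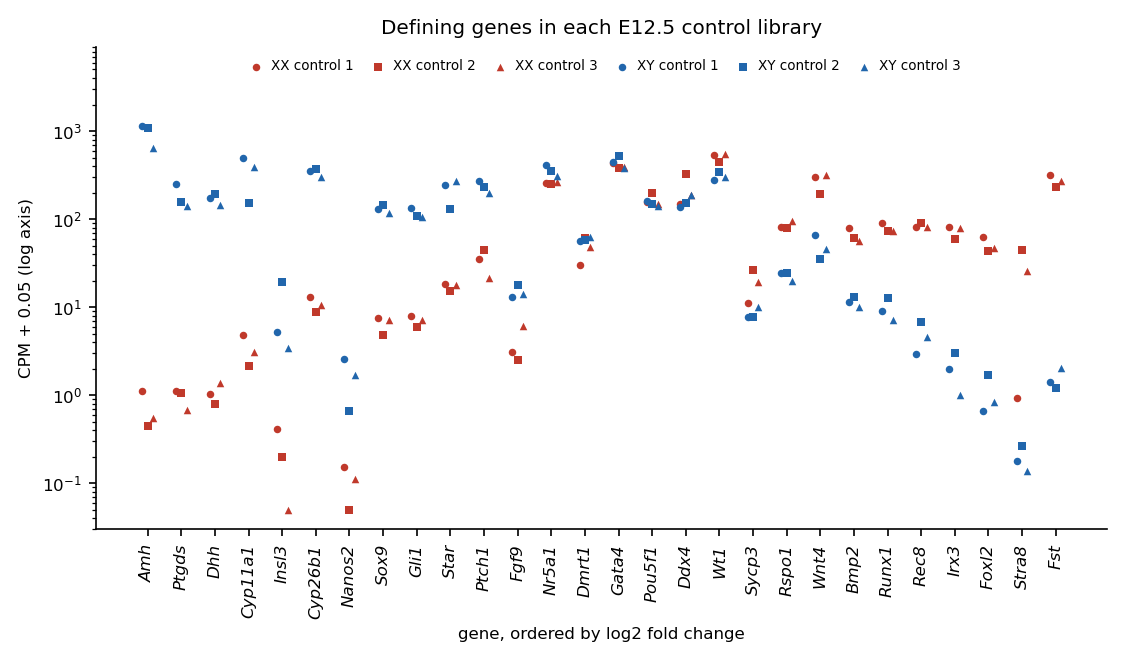
CPM + 0.05 on a log axis of 28 defining genes of the ovary and testis in each E12.5 control library, ordered by log2 fold change from XY-high (left) to XX-high (right). The 3 XX (red) and 3 XY (blue) libraries are apart at both ends and mixed for Dmrt1, Gata4, Pou5f1 and Ddx4 in the middle.

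The pre-granulosa list was the counterpart in XX. Of its 19 members, 14 were called higher in XX and 1, Hes1, higher in XY, where 11.1% of autosomal genes were higher in XX, and the median was 1.78. Foxl2, the forkhead factor that maintains granulosa identity, lies at chr9:98955288-98958543 on the plus strand. It was at 63.1, 43.0 and 46.4 CPM in XX and at 0.609, 1.65 and 0.782 CPM in XY, at 5.59 ± 0.36 (FDR = 6.91e-08). Without XY replicate 2, which had the highest XY level, the value was 6.23. Foxl2os, its neighbour on the opposite strand, was at 5.09 ± 0.27, and since the strand setting of the counting is not given in the sources used here, reads of the pair may be shared.

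Fst, follistatin, which binds activin, was the most different gene of the list, at 314, 234 and 273 CPM in XX and 1.35, 1.17 and 2.00 CPM in XY, at 7.57 ± 0.28 (FDR = 2.61e-10). The homeobox gene Irx3 was at 81.1, 60.1 and 78.4 CPM in XX and below 3 CPM in XY, at 5.14 ± 0.32, and its neighbour Irx5 was at 3.89 ± 0.35. Runx1, which works with Foxl2 in pre-granulosa cells, was at 3.01 ± 0.20. Bmp2, a ligand of these cells, was at 2.51 ± 0.16. For each of these 5 genes all XX libraries lay above all XY libraries. Kitl, the ligand of the germ cell receptor Kit, was at 1200, 981 and 1006 CPM in XX against 271, 377 and 396 CPM in XY. Fgfr3 was called in XX at 0.64 ± 0.18 and lost the call without XX replicate 2, XY replicate 2 or XY replicate 3.

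Wnt signalling genes moved in both directions. Of 34 members 12 were called higher in XX and 8 higher in XY (58.8%, beside 23.4% of autosomal genes), and the median was 0.20. Among the ligands and agonists, Wnt4, the ovarian Wnt, was at 301, 191 and 315 CPM in XX against 66.0, 35.3 and 45.3 CPM in XY, at 2.46 ± 0.26. Rspo1, which raises Wnt receptors at the membrane, was at 81.3, 78.7 and 95.8 CPM in XX against 24.2, 24.2 and 19.98 CPM in XY, at 1.90 ± 0.18. Wnt9a was at 2.89 ± 0.20. Rspo2 was low in both, with at most 3 counts in each XY library and 1.07 CPM in XX, at least 6.18-fold higher in XX against a floor of 3 counts per library.

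Several common transcriptional targets of canonical Wnt activity were called higher in XX. Sp5 was at 2.67 ± 0.26, Rnf43 at 2.54 ± 0.28, Notum at 2.04 ± 0.37, Nkd1 at 1.49 ± 0.18, Lef1 at 1.42 ± 0.16 and Axin2 at 1.31 ± 0.14. Lgr5, Znrf3 and Tcf7, also common targets, were not called (FDR of 0.0705, 0.391 and 0.163). Higher in XY were the secreted antagonists Dkk1, itself a Wnt target, at -2.22 ± 0.36, Dkk3 at -1.66 ± 0.22, Sfrp1 at -1.02 ± 0.16 and Wif1 at -1.06 ± 0.28, together with the non-canonical ligand Wnt5a at -1.62 ± 0.17. Wnt5a was at 157, 127 and 141 CPM in XX and at 421, 374 and 515 CPM in XY. The count of 8 fell to 4 without XX replicate 2 and to 5 without XY replicate 1, and Wif1, Fzd1, Lrp5 and Amotl2 each lost their call in at least 1 fit that left out a library.

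FGF signalling opposes Wnt4 in the supporting cells. Of 20 members of its list 12 were called higher in XY and 2 higher in XX. The share called was 70%, beside 23.4% of autosomal genes, and the median was -0.92. The ligand Fgf9 was at 3.04, 2.47 and 6.13 CPM in XX and at 12.9, 17.9 and 14.2 CPM in XY, at -1.96 ± 0.30 (FDR = 0.000204). Some genes that ERK activity induces were called higher in XY, with Etv1 at -1.90 ± 0.22, Dusp4 at -1.70 ± 0.30, Spry4 at -1.21 ± 0.19 and Spry1 at -1.18 ± 0.22, whereas Spry2, Etv4, Spred1, Spred2 and Spred3 were not called. The receptors differed in direction. Fgfr4 was higher in XY at -1.77 ± 0.34, whereas Fgfr2, the receptor through which FGF9 acts in the testis, was higher in XX at 1.36 ± 0.11, with 274, 265 and 255 CPM in XX against 105, 93.3 and 112 CPM in XY. Fgfr3 was the other member called in XX, with the loss of its call given above.

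**Figure D3:**
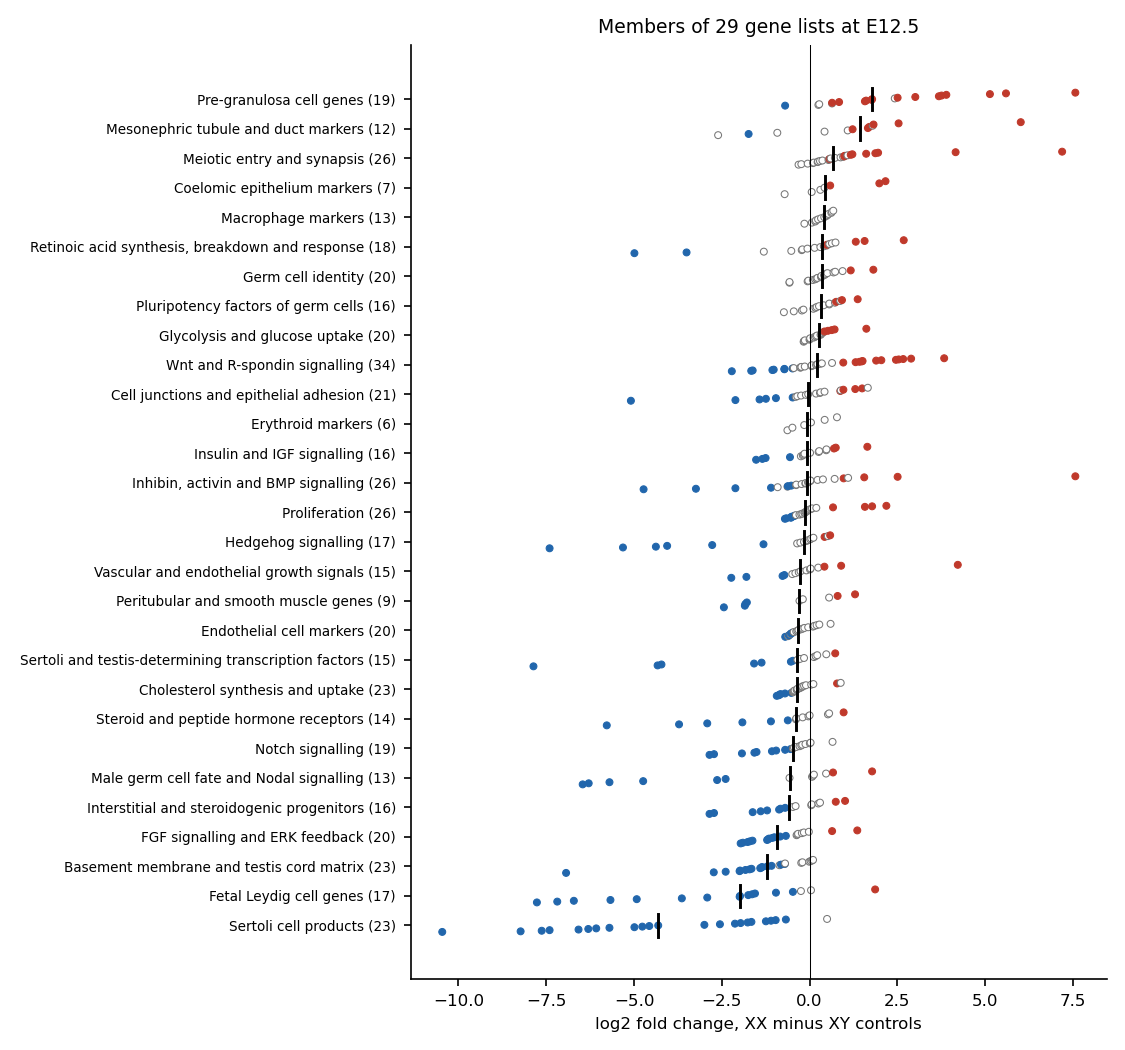
Log2 fold change of XX minus XY controls at E12.5 for the tested autosomal members of 29 gene lists, with the number tested in brackets. Filled points are called genes (red higher in XX, blue higher in XY), open points are not called and a black bar is the list's median, from -4.31 for Sertoli cell products to 1.78 for pre-granulosa cell genes.

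In the Hedgehog pathway, beside Dhh, the receptor and target Ptch1 was at 35.5, 45.1 and 21.4 CPM in XX and at 270, 232 and 197 CPM in XY, at -2.77 ± 0.33. Gli1, a target whose level is commonly used as a readout of the pathway, was at 7.84, 5.90 and 7.13 CPM in XX and at 133, 108 and 105 CPM in XY, at -4.06 ± 0.39. Hhip, a target that binds the ligand, was at -5.32 ± 0.36, and Gli2 was at -1.31 ± 0.17. In all, 47.1% of 17 members were called, beside 23.4% of autosomal genes, with a median of -0.16. Of these members 6 were called higher in XY and 2, the co-receptor Boc and the ligand exporter Disp1, higher in XX. Both of the latter calls were lost without XX replicate 3, XY replicate 2 or XY replicate 3. Shh, another ligand, was also called higher in XY, at -4.38 ± 0.84, though below 3 CPM in every library, and was at -6.13 without XX replicate 2.

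Fetal Leydig cells, which respond to Dhh, gave the list with the second lowest median, -1.98. Of 17 members 14 were called higher in XY and 1, Thbs2, higher in XX (88.2%, beside 23.4% of autosomal genes). Cyp17a1, which makes androgens from progestogens, was at 572, 270 and 664 CPM in XY and at 1.44, 1.97 and 3.63 CPM in XX, at -7.77 ± 0.41. Cyp11a1, which cleaves the side chain of cholesterol, was at 498, 154 and 393 CPM in XY and at 4.74, 2.12 and 3.06 CPM in XX, at -6.71 ± 0.43. Star, which carries cholesterol into mitochondria, was at 243, 129 and 271 CPM in XY against 18.5, 15.04 and 18.1 CPM in XX, at -3.64 ± 0.22. For all 3 genes XY replicate 2 was the lowest XY library and still lay above every XX library.

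Insl3, the Leydig hormone that moves the testis, showed the opposite order among the XY libraries. It was at 5.22, 19.3 and 3.39 CPM in XY, highest in replicate 2, and at 0.361, 0.151 and 0 CPM in XX, at -5.67 ± 0.81. Without XY replicate 2 its log2 fold change was -4.56, and without XX replicate 1 it was -6.74. Cyp11b1 was at most 1 count in each XX library and at 4.70, 0.867 and 4.78 CPM in XY, at least 21.0-fold higher in XY against the floor of 3 counts per library. Hsd3b1, which completes progesterone synthesis, was at -4.92 ± 0.37, and its near-identical copies make the split of reads among them uncertain. Thbs2, a secreted matrix protein, was at 32.6, 53.0 and 54.8 CPM in XX against 16.2, 7.07 and 15.6 CPM in XY.

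Of 23 genes of cholesterol synthesis and uptake 6 were called higher in XY and 1, the lysosomal exporter Npc1, higher in XX (30.4% called, beside 23.4% of autosomal genes), with a median of -0.36. Differences of called synthesis enzymes were small, from -0.93 ± 0.21 for Msmo1 to -0.52 ± 0.15 for Sqle. The number called higher in XY was 3 without XX replicate 3 or XY replicate 3, and 10 without XY replicate 2, the library with the lowest steroidogenic genes. Summed over the list, XY replicate 2 was at 1896 CPM and the other XY libraries at 2697 and 2618 CPM, and the XX libraries at 1897, 2227 and 1670 CPM, so XY replicate 2 lay inside the XX range.

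Of 14 hormone receptors 6 were called higher in XY and 1, Amhr2, higher in XX (50%, beside 23.4% of autosomal genes). The other 7 were not called. Amhr2, the receptor of AMH, was at 257, 225 and 250 CPM in XX and at 149, 128 and 96.4 CPM in XY, at 0.97 ± 0.18, opposite to its ligand. Lhcgr, the receptor through which luteinising hormone drives Leydig cells, was at -2.91 ± 0.33. Prlr, the prolactin receptor, was at 65.4, 22.6 and 69.9 CPM in XY against 2.99, 4.84 and 4.13 CPM in XX. Fshr, the Sertoli and granulosa receptor of follicle-stimulating hormone, had at most 1 count in each XX library and 1.33 CPM in XY, at least 8.11-fold higher in XY.

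Of 16 interstitial and progenitor genes 8 were called higher in XY and 2 higher in XX (62.5%, beside 23.4% of autosomal genes). The other 6 were not called, and the median was -0.59. Pdgfra, the receptor that Leydig precursors need, was at 339, 319 and 331 CPM in XX and 795, 681 and 812 CPM in XY. Gata6 went the other way, at 1.01 ± 0.14, as did Igf1 at 0.75 ± 0.23, which lost its call without any 1 of 5 libraries (FDR up to 0.123). Of 9 smooth muscle genes, which mark peritubular cells and vessel walls, 4 were called higher in XY, 2 higher in XX and 3 were not called. The share called was 66.7%, beside 23.4% of autosomal genes, and the median was -0.29. Acta2 was at 19.6, 25.0 and 36.6 CPM in XX and at 168, 123 and 148 CPM in XY, at -2.44 ± 0.26. Tagln at -1.83 ± 0.25 and Mylk at -1.79 ± 0.24 went with it. Myl9, a light chain of smooth and non-muscle myosin, was higher in XX, at 1.30 ± 0.19. Myh11, the smooth muscle myosin heavy chain, was also higher in XX, at 0.80 ± 0.24, and lost its call without XX replicate 2, XX replicate 3, XY replicate 2 or XY replicate 3 (FDR up to 0.102).

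Genes of basement membrane and matrix were higher in XY wherever they were called, and whether their transcripts came from the cords was not measured. Of 23 such genes 15 (65.2%, beside 23.4% of autosomal genes called in either direction) were higher in XY, with a median of -1.21. None was higher in XX by edgeR, by DESeq2 or at an unadjusted p under 0.05. Summed over the list, these transcripts took between 7663 and 8523 CPM in XX and between 16500 and 23440 CPM in XY. Col4a1, the main collagen of basement membranes, was at 779, 728 and 726 CPM in XX and at 3730, 2799 and 2368 CPM in XY, at -1.99 ± 0.16. Col18a1 was at -1.98 ± 0.19 and the linker Nid1 at -1.41 ± 0.15. The largest difference was in Col9a3, a collagen better known from cartilage, at 2.37, 3.18 and 5.25 CPM in XX and at 477, 507 and 321 CPM in XY, at -6.94 ± 0.31. Its partners Col9a1 and Col9a2 were at -2.73 ± 0.38 and -2.39 ± 0.27. Col3a1 and Sparc, with Col4a1 among the 5 called autosomal genes of highest mean CPM that were higher in XY, were at -1.35 ± 0.21 and -1.08 ± 0.14.

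Of 21 junction genes 6 were called higher in XY and 4 higher in XX (47.6%, beside 23.4% of autosomal genes). The gap junction protein Gjb2 was at most 0.773 CPM in XX and between 19.6 and 21.9 CPM in XY, at -5.09 ± 0.31, and Jam2 was at -2.11 ± 0.17. The keratin Krt18 of simple epithelia was at 39.0, 43.1 and 59.8 CPM in XX and at 22.4, 18.6 and 16.3 CPM in XY, at 1.30 ± 0.20. The calls of Cldn1 in XY and Cldn6 in XX were each lost in 4 of the 6 fits that left out 1 library.

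Within the TGF-beta family the subunits of activin and inhibin were higher in XY, and Fst, which binds activin, was higher in XX. Inhba, the activin A subunit, was at 25.9, 12.1 and 22.8 CPM in XY and below 1 CPM in every XX library, at -4.73 ± 0.67. Inha was at -2.11 ± 0.25 and Inhbb at -1.10 ± 0.16. Bmp2 and the receptor Bmpr1b, at 1.56 ± 0.26, were higher in XX. Over the 26 members 6 were called higher in XY and 4 in XX (38.5%, beside 23.4% of autosomal genes), with a median of -0.08.

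Retinoic acid genes showed their largest differences in the enzymes. Cyp26b1, which degrades retinoic acid and shields male germ cells from it, was at 356, 371 and 300 CPM in XY and at 13.1, 8.68 and 10.5 CPM in XX, at -4.99 ± 0.32. Aldh1a1, which makes retinoic acid, was also higher in XY, at 885, 728 and 981 CPM against 47.7, 110 and 70.8 CPM in XX, at -3.50 ± 0.34. The binding proteins lay on the other side, with Crabp1 at 1.57 ± 0.17 and Crabp2 at 1.32 ± 0.17. Of 18 members 4 were called higher in XX and 2 higher in XY (33.3%, beside 23.4% of autosomal genes). The number higher in XX was 8 when libraries were scaled by their size alone and 7 when the 6 control libraries were fitted alone.

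In the Notch list all 9 calls among 19 members (47.4%, beside 23.4% of autosomal genes) were higher in XY, and the median was -0.48. Jag1, a ligand, was at 12.1, 10.6 and 15.3 CPM in XX and at 108, 76.8 and 88.4 CPM in XY, at -2.85 ± 0.22. The target Heyl was at 17.3, 18.2 and 24.9 CPM in XX and at 151, 118 and 129 CPM in XY, at -2.72 ± 0.19, and the receptor Notch3 was at -1.51 ± 0.22. In the insulin and IGF list, 3 of 16 genes were higher in XX and 4 in XY (43.8% called, beside 23.4% of autosomal genes). Igf2 was at 3960, 2812 and 3321 CPM in XX against 2134, 1920 and 2182 CPM in XY, at 0.69 ± 0.13, and Igfbp2 was at 1.64 ± 0.21. Igfbp3 was higher in XY at -1.25 ± 0.26.

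Most germ cell identity genes were not separated by the test. Of 20 tested germ cell identity genes 2 were called, Tfap2c and Sycp3, both higher in XX (10% against 23.4% of autosomal genes called in either direction), and the median was 0.34. Ddx4, the helicase of germ granules, was at 147, 323 and 190 CPM in XX and at 139, 154 and 187 CPM in XY, and Pou5f1 was at 157, 200 and 149 CPM in XX and at 161, 148 and 141 CPM in XY. Both had overlapping libraries. Summed over the list, XX replicate 2 was at 2089 CPM and the other 5 libraries lay between 1109 and 1455 CPM. The share of germ cells in each pool was not measured. The number called higher in XX was 5 without XX replicate 1 and 4 with DESeq2, and 2 were called higher in XY with DESeq2, when the 6 control libraries were fitted alone or without XX replicate 2.

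Of 26 tested genes of meiotic entry and synapsis 10 were called higher in XX, where 11.1% of autosomal genes were, and 16 were not called, with a median of 0.66. None was called higher in XY by edgeR or DESeq2, and 1 was at an unadjusted p under 0.05. Rec8, the meiotic cohesin, lies at chr14:55618037-55625395 on the plus strand. It was even among the XX libraries, at 82.1, 89.7 and 82.3 CPM, and at 2.87, 6.76 and 4.52 CPM in XY, at 4.16 ± 0.26 (FDR = 5.06e-08). Stra8, which retinoic acid and BMP signals induce at the start of meiosis, was uneven, at 0.877, 44.3 and 25.4 CPM in XX and at 0.131, 0.217 and 0.0869 CPM in XY, at 7.19 ± 1.37 (FDR = 0.00201). XX replicate 1 had the lowest level of the 3 XX libraries for all 10 called meiotic genes, and the Stra8 value was 6.34 without XX replicate 2. The Stra8 call was lost when the 6 control libraries were fitted alone (FDR = 0.072).

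The other called meiotic genes had smaller differences. Zglp1, a factor that activates the oogenic programme, was at 5.57, 13.4 and 10.5 CPM in XX against 3.05, 2.43 and 2.52 CPM in XY, at 1.87 ± 0.30. Sycp3, of the synaptonemal complex, was at 11.1, 26.2 and 19.4 CPM in XX against 7.71, 7.72 and 9.91 CPM in XY, at 1.17 ± 0.28. Tex101 overlapped between the groups and lost its call in 5 of the 6 fits that left out 1 library. The number of meiotic genes called fell from 10 to 6 without XX replicate 2, the library with the highest germ cell sum, and to 6 without XY replicate 1. In each of these fits Stra8, Rec8, Zglp1 and Sycp3 remained called.

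In the list of male germ cell fate and Nodal signalling, several Nodal genes were called higher in XY, and the cells that expressed them were not identified. Lefty2, a target and inhibitor of Nodal, was at 97.0, 104 and 109 CPM in XY and at 2.42, 0.656 and 0.813 CPM in XX, at -6.29 ± 0.53. Lefty1 was at 39.0, 35.5 and 30.3 CPM in XY and below 1 CPM in XX, at -5.70 ± 0.30. Both Lefty genes were also called higher in XY at stage E11.5, with Lefty1 at -1.89 and Lefty2 at -1.56. The ligand Nodal was at -2.63 ± 0.36 and its co-receptor Tdgf1 at -2.39 ± 0.50. Nanos2, which locks male germ cell fate, was still low, at 2.53, 0.607 and 1.65 CPM in XY and at most 2 counts in each XX library, at least 9.70-fold higher in XY. In the list of 13, 61.5% were called, beside 23.4% of autosomal genes. Of these calls 6 were higher in XY and 2, the cell cycle genes Ccne1 and Cdkn1b, higher in XX.

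**Figure D4:**
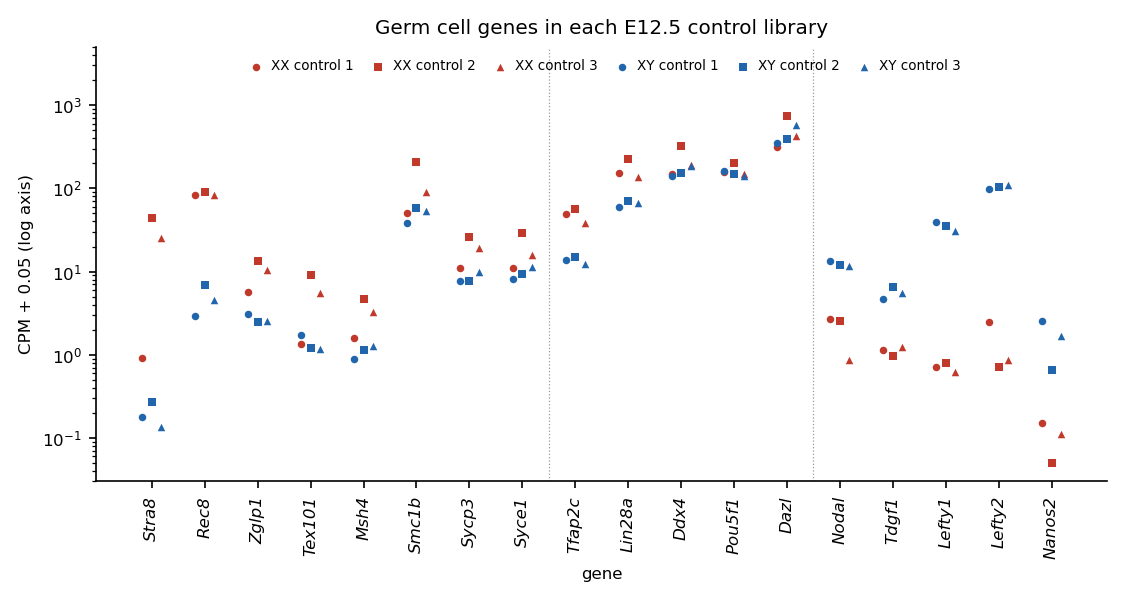
CPM + 0.05 on a log axis for meiotic genes (left of the first dotted line), germ cell identity and pluripotency genes (middle) and Nodal pathway and male germ cell genes (right) in each E12.5 control library. Stra8 was at 0.877 CPM in XX replicate 1 and at 44.3 and 25.4 CPM in the other XX libraries, while Rec8 lay between 82.1 and 89.7 CPM in all 3.

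Of 16 pluripotency factors of germ cells 3 (18.8%, beside 23.4% of autosomal genes) were called, all higher in XX, and DESeq2 called 6 higher in XX and 1 higher in XY. Lin28a was the largest, at 152, 222 and 136 CPM in XX against 59.0, 71.2 and 67.2 CPM in XY, at 1.37 ± 0.23. The calls of Dppa2 and Tdh were lost without XX replicate 2, XY replicate 1 or XY replicate 2, and 6 members were called when the 6 control libraries were fitted alone. Nanog, at 0.27 (FDR = 0.536), and Pou5f1 were not called.

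Of 26 proliferation and cell cycle genes 15 were not called and 42.3% were called, beside 23.4% of autosomal genes. Of the calls 7 were higher in XY and 4 higher in XX. The 4 were 3 cell cycle inhibitors and the cyclin Ccne1, at 0.67 ± 0.14. Cdkn1c was at 839, 542 and 723 CPM in XX and at 122, 197 and 144 CPM in XY, at 2.19 ± 0.24. Cdkn1b was at 1.78 ± 0.21 and Cdkn1a at 1.58 ± 0.18, and none of the 3 inhibitors had overlapping libraries. The 7 mitotic genes called higher in XY differed by between -0.42 ± 0.12 for Aurka and -0.70 ± 0.12 for Aurkb, and only 4 were called without XX replicate 3 or without XY replicate 2. Glycolysis gave 5 calls among 20 (25%, beside 23.4% of autosomal genes called in either direction), all higher in XX, led by Aldoc at 1.62 ± 0.26, and this number was 2 without XY replicate 3.

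Of 15 vascular signals 3 were called higher in XX and 4 higher in XY (46.7%, beside 23.4% of autosomal genes), with 8 not called. Without XX replicate 2 or XY replicate 1 the number called in XY was 2. Cxcl12, a chemokine for endothelial and germ cells, was at 140, 54.0 and 147 CPM in XX and at 563, 399 and 636 CPM in XY, at -2.23 ± 0.31. Adm, adrenomedullin, was at 20.1, 14.3 and 30.1 CPM in XX and at 0.827, 1.47 and 1.13 CPM in XY, at 4.22 ± 0.34. Of 20 endothelial markers 5 were called (25%, beside 23.4% of autosomal genes), all higher in XY by less than 2-fold, from -0.69 ± 0.15 for Efnb2 to -0.48 ± 0.15 for Cdh5. Summed, the markers were at 1045 to 1273 CPM in XX and 1133 to 1469 CPM in XY, which overlap, and the calls numbered 2 without XX replicate 2, XX replicate 3 or XY replicate 2 and 8 without XY replicate 3.

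Markers of neighbouring tissue and blood were read beside these results. None of 13 macrophage and none of 6 erythroid markers was called by edgeR or DESeq2, and 3 and 1 of them were higher in XX at an unadjusted p under 0.05. Summed, the macrophage markers were at 80.9 to 102 CPM in XX and 64.5 to 76.1 CPM in XY, without overlap, and their median was 0.42. The erythroid sums overlapped, at 1617 to 2709 CPM in XX and 1514 to 2455 CPM in XY. Of 12 mesonephric markers 6 were called higher in XX and 1, Lhx1, higher in XY (58.3%, beside 23.4% of autosomal genes). Lhx1 was at -1.74 ± 0.38, and the lowest value of the list, -2.61, belonged to a marker without a call. With the 6 control libraries fitted alone, 2 markers were called higher in XY. The sum of the 12 markers was 91.5 to 104 CPM in XX and 36.2 to 41.1 CPM in XY. Calb1 made up 40.7, 25.1 and 35.3 CPM of the XX sums and was below 1 CPM in XY, at 6.01 ± 0.43. Pax8 was at 1.70 ± 0.22 and Pax2, a defining marker of the duct and tubules, was at 1.44, 2.12 and 2.31 CPM in XX and at 1.00, 0.867 and 0.869 CPM in XY, without a call. Cdh16 stayed below 1.4 CPM in all libraries. The part of mesonephric tissue in the other XX-high genes was not tested. Of 7 coelomic epithelium markers Podxl, Upk3b and Lhx2 were called higher in XX (42.9%, beside 23.4% of autosomal genes). The other 4 were not called, and 1 was called higher in XY with the replicate number as a block or without XY replicate 1. Lhx2 was low, at a mean of 2.43 CPM in XX and 0.536 CPM in XY. Podxl, a sialomucin, was at 1419, 1117 and 1139 CPM in XX and at 295, 310 and 323 CPM in XY, at 1.99 ± 0.12.

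Among the genes with the largest differences, many had no place in the lists. Chrm4, a muscarinic acetylcholine receptor, was at 187, 129 and 138 CPM in XX and at 1.22, 1.86 and 0.521 CPM in XY, at 6.85 ± 0.29 (FDR = 7.08e-10). Scrt2, a zinc finger repressor, was at 42.0, 28.96 and 23.3 CPM in XX and below 0.4 CPM in XY, at 7.47 ± 0.44. Tmem171 and Tmem174, neighbours on chromosome 13 at 98686235-98694834 and 98634978-98637410, both on the minus strand, were at 5.39 ± 0.36 and 6.80 ± 0.48. The intestinal homeobox genes Isx and Cdx2 had at most 3 counts in each XY library and were at least 32.8-fold and at least 66.1-fold higher in XX. The opioid receptor gene Oprk1 was at least 30.1-fold higher in XX.

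On the XY side Kcns2, a potassium channel subunit, and Crhr1, the receptor of corticotropin-releasing hormone, had at most 2 counts in each XX library and were at least 120-fold and at least 128-fold higher in XY. Ctrb1, a digestive protease, was at 44.0, 26.1 and 14.5 CPM in XY and at -6.88 ± 0.56. Mal was at -6.63 ± 0.73. Serpina5, a protease inhibitor of the male tract, was at 0 in all 3 XX libraries and at 7.31, 3.86 and 6.08 CPM in XY, at least 35.0-fold higher. Gene IDs at the floor of 3 counts or fewer in each library of a group numbered 35 for XX and 37 for XY among the calls. The 35 include 3 IDs of Pakap with the same mean level in XY, 1.695 CPM, so they are not all separate genes. By CPM, which is not corrected for gene length, the 5 called autosomal genes of highest mean that were higher in XX were H19, Igf2, Kctd14, Peg10 and Podxl, the first 4 of them by less than 2-fold.

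The same contrast at E11.5, 1 day earlier, gave 107 calls among 13693 autosomal genes (0.781%), 40 higher in XX (0.292%) and 67 in XY (0.489%), and libraries did not overlap for 17.3%. Those libraries held gonad with mesonephros and were made with another stranded kit, so the stages cannot be told apart from tissue and kit, and no test between them was made. Of the 107 genes, 93 (86.9%) were also called at E12.5, where 23.4% of all tested autosomal genes were called. Of the 93, 91 went in the same direction, and the 93 were 2.88% of the E12.5 calls. Of the Sertoli cell products 13 of 22 were called at E11.5, all higher in XY, and of the pre-granulosa genes 4 of 18, all higher in XX. No tested gene of the Leydig (12), meiotic (21) or Notch (19) lists was called at E11.5 by edgeR, where 5, 4 and 3 were at an unadjusted p under 0.05 and DESeq2 called 0, 1 and 1.

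Gene by gene, Amh was at 0.828 ± 0.310 CPM in XX and 32.5 ± 28.6 CPM in XY (SD, n = 3) at E11.5, a log2 fold change of -5.26 beside -10.46 at E12.5. Sox9 was at 27.9 ± 6.002 CPM in XX and 65.6 ± 10.6 CPM in XY, -1.23 beside -4.33. Foxl2 was at 9.67 ± 1.69 CPM in XX and 1.29 ± 0.331 CPM in XY, 2.89 beside 5.59, and Fst was at 2.02 beside 7.57. Wnt4 (0.35), Rspo1 (0.25), Irx3 (0.64) and Runx1 (0.49) were positive at E11.5 without a call, and Cyp11a1 was at 0.51, also without a call, beside -6.71 at E12.5. The E11.5 counts depend on 1 library. Without XY replicate 2 there were 2410 calls, and without each of the other 5 libraries between 46 and 102.

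**Figure D5:**
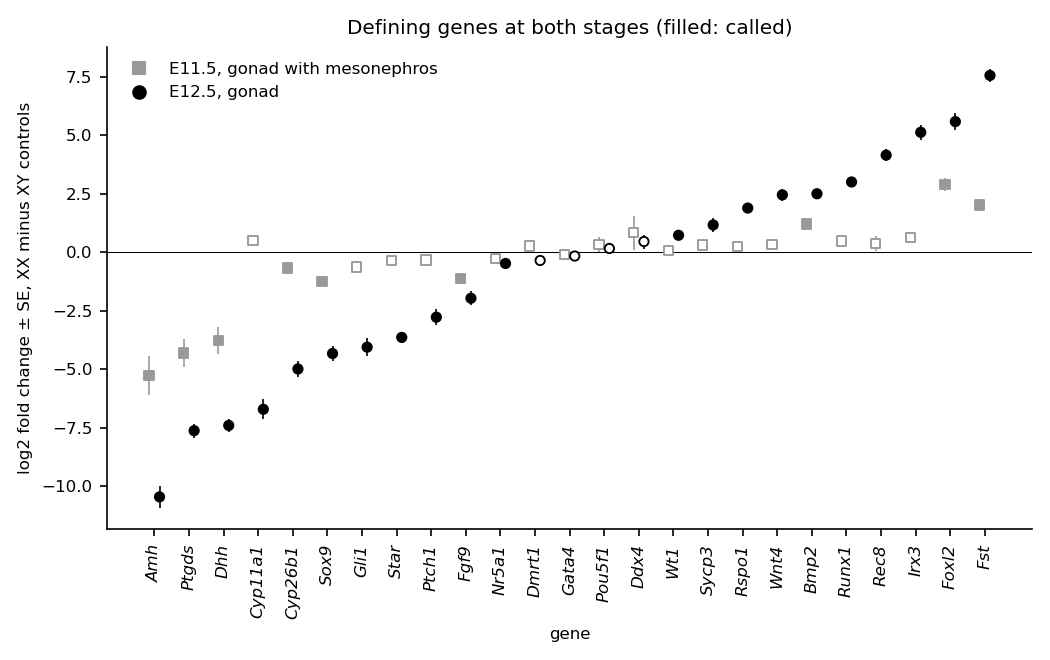
Log2 fold change ± SE of XX minus XY controls for the defining genes tested at both stages, at E11.5 in gonad with mesonephros (grey squares) and at E12.5 in gonad (black circles), with filled symbols for called genes. Amh, Ptgds, Dhh, Foxl2 and Fst were among the genes called at both stages and Cyp11a1, Rec8, Irx3 and Wnt4 among those called at E12.5 alone, without a test between the stages.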

How the data were processed

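The authors extracted RNA from 2 pairs of gonads per library, made stranded mRNA libraries (TruSeq at E12.5, NEBNext Ultra II Directional at E11.5), sequenced them as read pairs on a HiSeq4000, mapped them to mm10 with Subread and counted them per gene with featureCounts. The deposited values are these counts, which the authors did not normalize. The gene annotation and strand setting are not given in the sources used here, so overlapping genes and near-identical copies are uncertain. Coordinates and gene types are from GENCODE vM21 (GRCm38), in which 120 gene IDs of the table had no entry.

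R 4.3.3 with edgeR 4.0.16 (limma 3.58.1) was used. Tested genes reached 1 CPM in 2 or more of a stage's 12 libraries (14348 genes at E12.5). A mean per genotype was fitted to all 12 libraries with TMM scaling (factors of 0.9642 to 1.039 in the 6 controls) and a robust quasi-likelihood fit (legacy form). The study's methods name edgeR, this filter and an FDR of 0.05. The SE was obtained from the log2 fold change and the F statistic. Replicates were separate libraries, since their counts differed beyond sampling noise in every pair. On simulated counts the test recovered 9% of 200 genes changed by 1.5-fold, 68.5% by 2-fold and 93.5% by 4-fold. Only these 200 genes changed in each simulation, beside 3234 autosomal calls in the data, so the FDR cutoff was stricter there. Depth limits precision most in XY replicate 3, and a floor of 3 counts in each library was used for folds against an absent gene, which covers counting error only.

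Members of the lists, the defining genes and the tests were chosen with earlier results of these data known. Genes were named by a rule: 28 defining genes, the 15 largest differences in each direction without overlap and at 5 CPM or more in the higher group, up to 4 called members of each list and any called member against its majority, the 5 most abundant called genes each way and 5 sex chromosome genes. Other list members named were chosen after their values were seen. Alternatives were library size or RLE scaling, DESeq2 1.42.0, the newer quasi-likelihood form, other filters, the controls or autosomes alone, the replicate number as a block, and leaving out each library. The deposited tables of Foxl2 mutants, with 12 columns of samples, were not used, nor were the single-cell data. Some genes that the rule named are not reported here.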

Additional observations from a re-analysis of the deposited data

Results flagged for a closer look

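For 4 genes that the naming rule picked, every XX library lay on one side of every XY library at E12.5 and on the other side at E11.5. Over all tested autosomal genes the libraries did not overlap for 36.2% at E12.5 and 17.3% at E11.5. How many genes would change sides by chance was not tested, so whether the 4 are an excess is not known. The difference between the stages was not tested, because tissue and kit differ with the stage, and none of the 4 was called at E11.5. Vegfa, a growth factor of vessels, had a log2 fold change of 0.42 at E12.5 and -0.65 at E11.5 (FDR = 0.112), and its E12.5 call was lost without XX replicate 3 or XY replicate 2. Col9a1, a cartilage collagen, was at -2.73 at E12.5 and 0.73 at E11.5 (FDR = 0.630). Hsp90b1, a chaperone of the endoplasmic reticulum, was at -0.67 at E12.5 and 0.18 at E11.5 (FDR = 0.356). Lhx2 was at 2.16 at E12.5 and -1.24 at E11.5 (FDR = 0.397), with mean levels below 3 CPM at both stages.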

How the results depend on the processing

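At E12.5 the number of called autosomal genes lay between 2435 (5 CPM in 3 libraries) and 3587 (DESeq2), beside 3234, and each direction kept within 1.5 times its number under every alternative run. No named gene reversed. Scaling by library size alone moved the share of calls higher in XX from 47.2% to 55.9% and the median of all tested genes from 0.004 to 0.075. Leaving out 1 library gave 2614 to 2823 calls, 1154 to 1404 higher in XX and 1354 to 1540 higher in XY. Of the 162 called genes that the rule named, 136 were called under every alternative and 26 lost the call under at least 1, among them Stra8 when the 6 control libraries were fitted alone (FDR = 0.072). On simulated counts for the E12.5 contrast 9% of 1.5-fold changes were recovered, so small differences can be missed at this depth and number of libraries.

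Replicate numbers gave no clear sign of pairing. The deviations of same-numbered XX and XY libraries correlated at -0.109, -0.0406 and 0.0258 at E12.5, and at 0.147, -0.127 and 0.117 at E11.5. Libraries did not each correlate best with their own number. Deviations from the mean of 3 libraries constrain each other, so these values cannot exclude a shared litter or day. With the replicate block 2993 genes were called at E12.5, of which 2951 were among the 3234, and 97 at E11.5.

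The E11.5 counts were less stable. DESeq2 gave 414 calls, 154 higher in XX and 260 in XY, and without a filter on low counts 62 were higher in XX. Leaving out 1 library gave 46 to 2410 calls, 16 to 954 higher in XX and 28 to 1456 higher in XY, the highest without XY replicate 2, and the cause was not tested.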

Other observations

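After the values had been seen, 48 tested autosomal genes known to be imprinted in the mouse, that is expressed from the copy of one parent, were listed because several of them led the tables. Of these, 14 (29.2%) were called, 9 higher in XX and 5 higher in XY, with a median of 0.14, beside 23.4% of all autosomal genes. The largest differences lay together on distal chromosome 7. Between H19 and Nap1l4 (chr7:142575529-143549106, GRCm38) 15 genes were tested and 8 were called, 7 higher in XX, where 23.4% of all autosomal genes were called. This stretch was also chosen after the values had been seen, so its share of calls is no test. It includes Kcnq1ot1, which was not among the 48 genes.

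Phlda2, an imprinted gene that limits placental growth, was at 34.2, 49.4 and 36.9 CPM in XX and at 0.392, 0.347 and 0.0869 CPM in XY (128-fold). Its neighbour Slc22a18 was at 3.51, 6.56 and 5.25 CPM in XX and at most 0.260 CPM in XY, at 4.70. Kcnq1 was at 3.17, Cdkn1c at 2.19 and Kcnq1ot1, the non-coding RNA transcribed against Kcnq1, at 1.20. Since the strand setting of the counting is not known, reads of Kcnq1 and Kcnq1ot1 may be shared. Within the same stretch Tspan32 was higher in XY at -1.39, and Nap1l4 (0.04) and Cd81 (-0.49) were not called. At E11.5 none of Phlda2 (1.41), Slc22a18 (0.75), Kcnq1 (0.38) and Cdkn1c (0.24) was called. Imprinted genes elsewhere went both ways, with Peg10 at 0.97 and Zdbf2 at -1.04.

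Among called long non-coding RNA genes (lincRNA and antisense) more were higher in XX than in XY. Of 132 tested autosomal lincRNA genes 38 (28.8%) were called, 27 higher in XX (20.5%) and 11 in XY (8.33%). Of 143 antisense genes 25 (17.5%) were called, 18 higher in XX (12.6%) and 7 in XY (4.9%). Over all autosomal genes 23.4% were called, 11.1% higher in XX and 12.4% in XY. Protein-coding genes gave 1451 calls higher in XX and 1674 in XY. The share of autosomal genes called per chromosome ran from 18.9% on chromosome 17 to 27.7% on chromosome 3.

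Within the XY group, replicate 2 had the lowest level of Cyp17a1, Cyp11a1, Star, Hsd3b1, Lhcgr and Prlr and the highest level of Insl3. Within the XX group, replicate 1 had the lowest Stra8 and the highest Foxl2, Fst and Cdkn1c. These libraries are pools, and the embryos' exact stage within the day was not given.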
